A study of Homo sapiens with 21 samples.

Results

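RNA-seq of MDA-MB-436 cells in which a hairpin lowered RNF8 was compared with RNA-seq of the same cell line carrying a control hairpin. The 6 libraries, 3 with the control hairpin (shScr) and 3 with the hairpin against RNF8 (shRNF8), are 6 of the 21 samples of the series. The other samples are DNA-RNA hybrid immunoprecipitations with their RNase-treated and input controls. MDA-MB-436 is an established human triple-negative breast cancer cell line with a mutant BRCA1 gene. Both groups were transduced with a lentiviral vector whose hairpin is switched on by doxycycline (Dox), so the vector is common to them and the hairpin sequence differs. The labels give no dose or duration of Dox for either group. The labels name 1 hairpin against RNF8 and no rescue, so loss of RNF8 cannot be told apart from other effects of that hairpin or from differences between the transduced populations. The count table lists 26485 genes, and the 14018 with enough reads were tested. Whether the 3 libraries of a group are separate cultures is not in the labels, and the p-values therefore measure only the spread between these libraries, which may be technical. In bulk RNA, fewer cells expressing a gene and less RNA of it per cell cannot be told apart.

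RNF8 is a RING-type ubiquitin ligase that acts when DNA is damaged. It binds phosphorylated adaptor proteins at double-strand breaks and ubiquitylates chromatin proteins there, which brings further repair factors to the break. The series title concerns its action on XRN2, a nuclear exonuclease that degrades the RNA left after cleavage at the end of a gene and so helps RNA polymerase II to terminate. R-loops form where nascent RNA pairs with the template DNA strand and displaces the other strand, often at CpG-rich gene starts and at gene ends. The question put to the RNA-seq was which transcripts differ in amount between cells with and without the RNF8 hairpin.

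Each library held between 18121181 and 20006954 counts, and between 17212 and 17835 genes had at least 1 count. Levels are counts scaled to the effective library size (CPM), single libraries are listed in the order of replicates 1, 2 and 3, and ± marks the SD of 3 libraries. Genes of mesenchymal triple-negative cells were abundant in all 6 libraries, with vimentin (VIM) between 893 and 1149 CPM and the hyaluronan receptor CD44 between 559 and 588 CPM. The oestrogen receptor gene ESR1, the progesterone receptor gene PGR and the basal keratins KRT5 and KRT14 were at or near 0. Other members of the luminal and basal lists were well expressed, with the simple-epithelial keratins KRT8 between 496 and 888 and KRT18 between 306 and 506 CPM, and the receptor genes ERBB2 between 48.4 and 62.7 and EGFR between 99.8 and 185 CPM. Of the markers of other cell types, 3 of 8 fibroblast, 1 of 7 immune, 2 of 6 endothelial and 3 of 4 adipocyte genes had no count in any library. The summed levels were 5.05 to 8.56 CPM in shScr and 3.63 to 4.66 CPM in shRNF8 for the fibroblast, 120.2 to 141 CPM in shScr and 147 to 162 CPM in shRNF8 for the immune, 5.06 to 6.54 CPM in shScr and 7.16 to 8.66 CPM in shRNF8 for the endothelial and 0.155 to 0.488 CPM in shScr and 0 to 0.107 CPM in shRNF8 for the adipocyte list, and the groups did not overlap in any of the 4 sums. The part of these in the results was not tested. Most of the immune list's signal was the lysosomal protein gene CD68, which tumour cells also express. No marker of these lists that was tested was called with all 6 libraries (edgeR). Without shScr replicate 1, 27.3% of all tested genes were called. In that fit CD68 and the endothelial gene KDR were higher (edgeR adjusted p = 0.0127 and 0.000919). CD14 of the immune and COL1A1 of the fibroblast list were lower (edgeR adjusted p = 0.0114 and 0.00620). So were KRT17 and EGFR of the basal list (edgeR adjusted p = 0.000612 and 0.00214). The mesenchymal and luminal lists each held 1 higher gene.

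The libraries of a group were not equally alike. The chi-square per degree of freedom of raw counts was taken for each pair over all listed genes with a minimum summed count in that pair. It was 3.43 between shScr replicates 2 and 3, against 30.4 and 29.3 between shScr replicate 1 and each of them. Within shRNF8 it was 2.92 between replicates 1 and 2 and 13.2 and 10.9 between replicate 3 and each of them. Among the 10936 genes with a mean CPM of at least 5, 18 were at least 2-fold higher and 182 at least 2-fold lower in shScr replicate 1 than in the mean of replicates 2 and 3, while the corresponding counts for shRNF8 replicate 3 were 0 and 1. Results are therefore given with all 6 libraries and without shScr replicate 1.

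RNF8 itself measured 28.9, 29.1 and 28.0 CPM in shScr and 9.33, 9.99 and 7.94 CPM in shRNF8, with no overlap of the groups, and fell 3.15-fold (log2 change -1.66 with SE 0.13, adjusted p = 0.000165 in edgeR). Per kilobase of exon, shScr cells held 4.997 RPKM of RNF8, at the 41.3th percentile of the genes tested, a moderate level. XRN2 was present at 169, 138 and 126 CPM in shScr and 154, 159 and 169 CPM in shRNF8, and its log2 change of 0.15 (adjusted p = 0.468 in edgeR) did not pass. Its level in shScr replicate 1 was as high as in the highest shRNF8 library, and without that replicate XRN2 passed (log2 change 0.28, adjusted p = 0.0171 in edgeR).

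With all 6 libraries, edgeR's quasi-likelihood test called 136 genes higher (0.97%) and 220 genes lower (1.57%) in shRNF8 at a Benjamini-Hochberg adjusted p under 0.05, together 2.54% of those tested. Most of these changes were moderate. The median fold of called genes was 1.698 among higher and 1.55 among lower genes, 123 of the 356 changed by less than 1.5-fold, and 45 higher and 29 lower genes changed by at least 2-fold. Without shScr replicate 1, 1792 genes were called higher (12.8%) and 2030 lower (14.5%), together 27.3%, and every one of the 356 was among them in the same direction. In that fit the median fold was 1.34 for the 3466 additional genes and 1.62 for the 356. Over all 3822 it was 1.32 among higher and 1.41 among lower genes, and 2675 lay under 1.5-fold. When each library was left out in turn, 36 of the 356 genes passed every time, whereas 219 passed only in the fit without shScr replicate 1 and 12 failed in a single fit. Over all genes tested, between 46 (without shRNF8 replicate 3) and 131 (without shScr replicate 2) were called when a library other than shScr replicate 1 was left out.

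The 36 genes that passed whichever library was left out, 14 higher and 22 lower, were the part of the comparison that did not rest on any 1 library. Over all genes tested, the 3 shScr and 3 shRNF8 libraries did not overlap in 25.3%, and shScr replicates 2 and 3 did not overlap with shRNF8 in 55.4%. Secreted proteins and receptors are described first. NRP2, a co-receptor for semaphorins and vascular endothelial growth factors, had 1.91, 2.22 and 2.23 CPM in shScr and 8.69, 10.97 and 5.53 CPM in shRNF8 and rose 3.96-fold (log2 change 1.99 with SE 0.26, adjusted p = 0.00460 in edgeR). It was low in every control library, and shRNF8 replicate 3 had the lowest of the shRNF8 levels. FGF5, a secreted fibroblast growth factor, rose from 16.5, 15.4 and 16.4 CPM in shScr to 31.3, 28.1 and 31.5 CPM in shRNF8 (log2 change 0.91 with SE 0.11, adjusted p = 0.00319 in edgeR). PDGFA, which encodes a chain of platelet-derived growth factor, moved the other way, from 46.2, 45.9 and 46.2 CPM in shScr to 24.6, 26.4 and 24.9 CPM in shRNF8 (log2 change -0.86 with SE 0.094, adjusted p = 0.00206 in edgeR). The SD of its 3 control libraries was 0.188 CPM, shScr replicate 1 included. VGF, the precursor of secreted neuroendocrine peptides, was at 342, 294 and 335 CPM in shScr and 729, 813 and 619 CPM in shRNF8 (log2 change 1.15 with SE 0.11, adjusted p = 0.00126 in edgeR). ESM1, a secreted proteoglycan also called endocan, was at 72.8, 88.2 and 82.8 CPM in shScr and 149, 164 and 177 CPM in shRNF8 (log2 change 1.00 with SE 0.10, adjusted p = 0.00146 in edgeR), and every shRNF8 library lay above every control library.

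Adhesion, matrix and cytoskeletal genes also changed. CADM1, an immunoglobulin-type cell adhesion molecule, rose from 35.98 ± 1.73 to 63.6 ± 2.56 CPM (SD, n = 3 for both groups, log2 change 0.82 with SE 0.092, adjusted p = 0.00218 in edgeR). HS6ST2, which adds sulfate to heparan sulfate chains, was 20.8, 16.6 and 16.3 CPM in shScr and 36.7, 33.9 and 40.2 CPM in shRNF8 (log2 change 1.04 with SE 0.13, adjusted p = 0.00328 in edgeR), with shScr replicate 1 the highest control and still below every shRNF8 library. The neurofilament light chain gene NEFL rose from 21.1 ± 1.11 to 38.6 ± 2.21 CPM (log2 change 0.87 with SE 0.10, adjusted p = 0.00295 in edgeR). Among actin-associated genes, EPS8, an adaptor that caps and bundles actin filaments, rose from 55.8 ± 1.57 to 85.3 ± 3.65 CPM (log2 change 0.61 with SE 0.087, adjusted p = 0.00599 in edgeR). ZNF185, a LIM-domain protein of the actin cytoskeleton, rose from 63.03 ± 2.75 to 97.0 ± 0.376 CPM (log2 change 0.62 with SE 0.085, adjusted p = 0.00492 in edgeR). The 3 shRNF8 values of ZNF185 spanned only 96.7 to 97.4 CPM. SEPT6, a filament-forming septin, fell from 75.3, 88.2 and 91.9 CPM in shScr to 42.3, 43.3 and 39.9 CPM in shRNF8 (log2 change -1.02 with SE 0.10, adjusted p = 0.00129 in edgeR) or 2.03-fold.

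Lower genes included regulators of signalling and of vesicle traffic. PLCD3, a phospholipase C that cleaves phosphatidylinositol bisphosphate, was 214, 196 and 193 CPM in shScr and 76.5, 78.1 and 65.9 CPM in shRNF8 (log2 change -1.45 with SE 0.10, adjusted p = 0.000111 in edgeR). TBC1D10B, a GTPase-activating protein of Rab proteins, was 93.2, 79.6 and 91.2 CPM in shScr and 41.01, 38.4 and 37.5 CPM in shRNF8 (log2 change -1.18 with SE 0.10, adjusted p = 0.000369 in edgeR). RAB3B, a Rab of regulated secretion, was 288, 346 and 339.8 CPM in shScr and 186, 182 and 168 CPM in shRNF8 (log2 change -0.86 with SE 0.10, adjusted p = 0.00218 in edgeR). For both, control and shRNF8 libraries did not overlap, and shScr replicate 1 lay nearest to shRNF8 for RAB3B only. GOLPH3L, a Golgi membrane protein, fell from 42.4 ± 1.31 to 23.8 ± 3.204 CPM (log2 change -0.83 with SE 0.12, adjusted p = 0.00551 in edgeR). BACE2, a membrane aspartyl protease, fell from 44.1 ± 1.502 to 25.5 ± 1.22 CPM (log2 change -0.79 with SE 0.10, adjusted p = 0.00328 in edgeR). IFI30, a lysosomal thiol reductase, fell from 67.96 ± 5.69 to 40.6 ± 2.42 CPM (log2 change -0.74 with SE 0.10, adjusted p = 0.00488 in edgeR). OLR1, the receptor for oxidised low-density lipoprotein, had 43.02, 82.6 and 78.5 CPM in shScr and 13.4, 15.99 and 17.2 CPM in shRNF8 (log2 change -2.13 with SE 0.23, adjusted p = 0.00396 in edgeR). Here shScr replicate 1 lay between the other controls and shRNF8, and the log2 change without it was -2.38. CDKN1B, an inhibitor of cyclin-dependent kinases that holds cells before S phase, fell from 83.3, 86.3 and 80.9 CPM in shScr to 50.98, 47.4 and 49.6 CPM in shRNF8 (log2 change -0.76 with SE 0.088, adjusted p = 0.00259 in edgeR), with narrow ranges in each group.

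A carrier and an enzyme of methionine metabolism were among the lower genes. SLC25A26, the mitochondrial carrier of S-adenosylmethionine, was at 18.1, 16.1 and 14.7 CPM in shScr and 6.99, 8.15 and 8.27 CPM in shRNF8 (log2 change -1.06 with SE 0.14, adjusted p = 0.00488 in edgeR). BHMT2, a methyltransferase that makes methionine from homocysteine, was at 72.95, 79.8 and 76.1 CPM in shScr and 43.2, 34.3 and 42.8 CPM in shRNF8 (log2 change -0.93 with SE 0.11, adjusted p = 0.00291 in edgeR). Both were below every control library in every shRNF8 library. SLC25A26 shares 393 bp of exon with LRIG1, and the counting used no strand option, so its reads are not fully its own. The zinc finger gene ZNF664 fell from 162, 163 and 154 CPM in shScr to 67.3, 67.04 and 72.4 CPM in shRNF8 (log2 change -1.21 with SE 0.085, adjusted p = 0.000111 in edgeR). ZNF678, another zinc finger gene, fell from 22.7 ± 1.36 to 12.3 ± 0.7898 CPM (log2 change -0.88 with SE 0.12, adjusted p = 0.00492 in edgeR). ZNF664 shares 497 bp with the read-through gene ZNF664-FAM101A. TRABD2A, a membrane protease that cleaves WNT ligands, rose from 6.49, 8.13 and 6.33 CPM in shScr to 21.01, 17.8 and 20.01 CPM in shRNF8 (log2 change 1.49 with SE 0.15, adjusted p = 0.00126 in edgeR). The histone gene HIST1H2BK rose from 12.2 ± 0.503 to 26.3 ± 2.65 CPM (log2 change 1.10 with SE 0.12, adjusted p = 0.00206 in edgeR). It has near-identical copies in the histone clusters, so its reads may be shared with them.

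A further 7 lower and 2 higher genes of the 36 fell outside the rule for naming genes and were chosen for naming after their values were seen. EPAS1, a hypoxia-inducible transcription factor, went from 185 ± 11.5 to 111 ± 11.1 CPM (log2 change -0.74 with SE 0.10, adjusted p = 0.00488 in edgeR). BHLHE40, a transcriptional repressor, went from 120.4 ± 2.96 to 77.4 ± 1.49 CPM (log2 change -0.64 with SE 0.082, adjusted p = 0.00417 in edgeR). PTGES, a prostaglandin E synthase, COPE, a coatomer subunit, MCFD2, a cargo receptor cofactor between endoplasmic reticulum and Golgi, EFTUD1, a GTPase of ribosome maturation, and C12orf49 had log2 changes between -0.72 and -0.64 (edgeR adjusted p from 0.00396 to 0.00460). MCFD2 shares 924 bp of exon with TTC7A. CNTNAP2, a neuronal adhesion protein of the neurexin family, rose from 2.11, 2.49 and 1.87 CPM in shScr to 8.16, 6.77 and 8.44 CPM in shRNF8 (log2 change 1.85 with SE 0.20, adjusted p = 0.00206 in edgeR). NFATC2, a calcium-activated transcription factor, rose from 1.96, 1.95 and 1.62 CPM in shScr to 6.35, 6.51 and 6.93 CPM in shRNF8 (log2 change 1.84 with SE 0.20, adjusted p = 0.00206 in edgeR). Both had a mean under 5 CPM over the 6 libraries and no overlap of the groups.

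**Figure D1:**
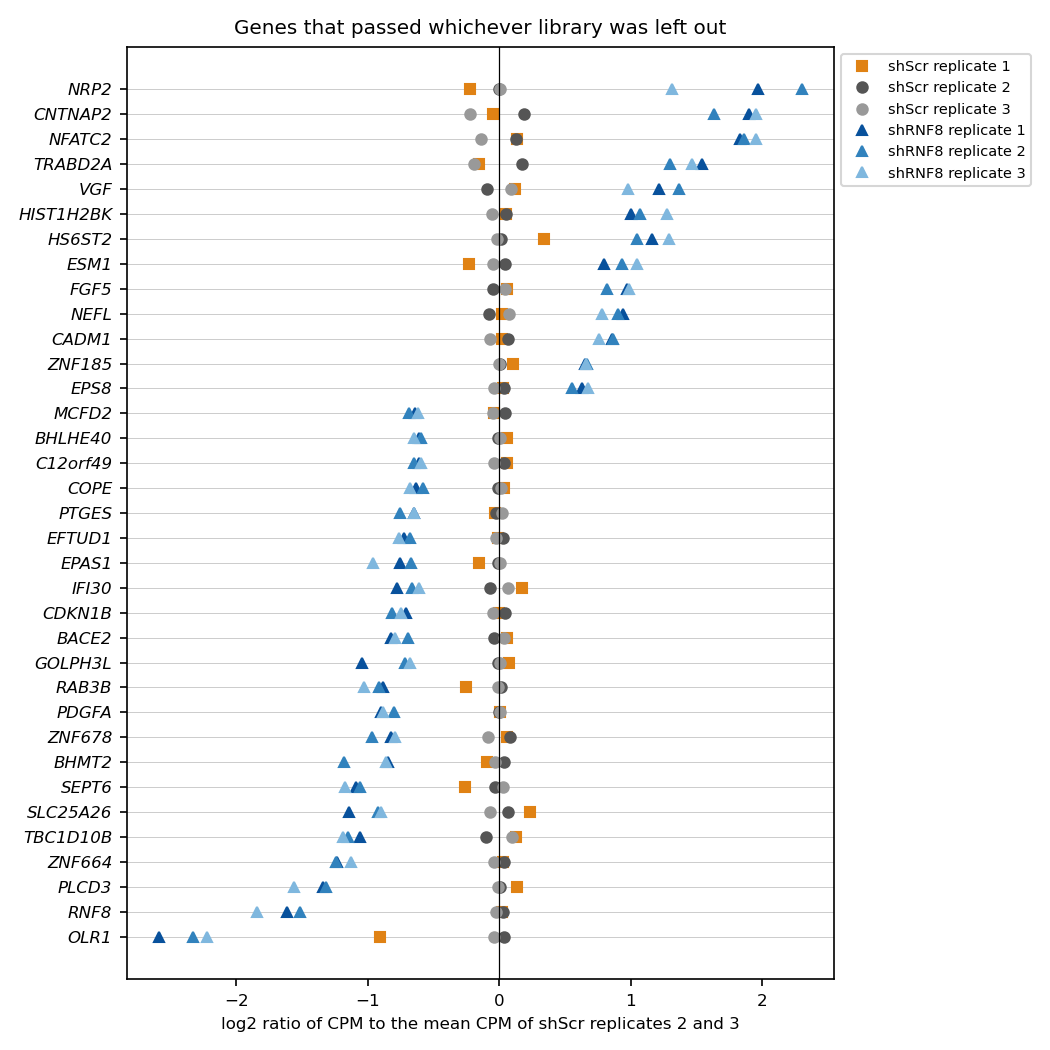
Each row is 1 of 35 of the 36 genes that passed whichever library was left out, and the x axis is the log2 ratio of CPM in 1 library to the mean CPM of shScr replicates 2 and 3. The triangles of the 3 shRNF8 libraries lie apart from the control symbols in every row. The square of shScr replicate 1 lies from -0.26 (SEPT6) to 0.34 (HS6ST2) except for OLR1, at -0.90. The same levels chose these genes, so both features describe the choice and test nothing. Of all tested genes, 25.3% had no overlap of the groups.

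The stretches just upstream of 4 of these genes are shown because the genes differ from each other in DNA-RNA hybrid peaks near the start. At each gene the 6 immunoprecipitation libraries of shScr and shRNF8 were alike in the presence or absence of a peak. NRP2 and TRABD2A are, among those of at least 5 CPM, the higher genes with the largest change and no hybrid peak near the start in any library, and PLCD3 and ZNF664 the lower genes with the largest change and a peak near the start in all 6 libraries. Each line is the 250 bases before the RefSeq gene start, 5′ to 3′ on the strand of the gene, in assembly GRCh38.p14, with CpG dinucleotides in capitals. NRP2 lies at chr2:205682251-205682500 on the plus strand, TRABD2A at chr2:84881085-84881334 on the minus strand, PLCD3 at chr17:45132516-45132765 on the minus strand and ZNF664 at chr12:123972965-123973214 on the plus strand. The RefSeq start of TRABD2A used here lies 161 bp from the start in the count table.
NRP2: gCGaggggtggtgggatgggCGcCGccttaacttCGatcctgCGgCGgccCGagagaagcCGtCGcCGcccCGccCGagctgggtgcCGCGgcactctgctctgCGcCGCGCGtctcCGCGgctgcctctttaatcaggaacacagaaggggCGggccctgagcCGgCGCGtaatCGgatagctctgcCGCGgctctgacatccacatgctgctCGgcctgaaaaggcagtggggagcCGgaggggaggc
TRABD2A: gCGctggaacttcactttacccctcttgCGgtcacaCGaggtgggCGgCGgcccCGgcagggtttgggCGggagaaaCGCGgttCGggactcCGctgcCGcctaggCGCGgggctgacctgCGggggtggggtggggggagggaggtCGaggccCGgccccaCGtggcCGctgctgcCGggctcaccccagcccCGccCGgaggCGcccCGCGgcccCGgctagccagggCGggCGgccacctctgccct
PLCD3: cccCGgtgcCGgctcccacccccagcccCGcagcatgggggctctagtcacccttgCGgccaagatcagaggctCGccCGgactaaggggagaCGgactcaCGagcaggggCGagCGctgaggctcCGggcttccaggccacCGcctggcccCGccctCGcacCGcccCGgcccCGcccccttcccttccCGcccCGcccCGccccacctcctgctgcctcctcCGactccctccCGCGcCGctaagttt
ZNF664: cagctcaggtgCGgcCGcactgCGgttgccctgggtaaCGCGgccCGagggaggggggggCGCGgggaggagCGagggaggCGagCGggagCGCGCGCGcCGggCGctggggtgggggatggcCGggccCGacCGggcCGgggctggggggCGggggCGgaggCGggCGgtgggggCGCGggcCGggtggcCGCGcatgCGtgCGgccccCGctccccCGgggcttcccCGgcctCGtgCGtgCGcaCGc

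All 4 stretches were rich in CpG, with 29 CpG and 70.0% G or C for NRP2, 28 and 77.2% for TRABD2A, 24 and 75.2% for PLCD3, and 39 and 84.4% for ZNF664. NRP2 and TRABD2A without a peak thus had more CpG here than PLCD3 and fewer than ZNF664, both with a peak in every library. These 4 chosen windows cannot show how CpG goes with peaks. Windows were matched for 76.3% of the genes tested, under the 80% needed for a check over a set, so no comparison of base composition between called and other genes is given.

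Across all genes, the direction of the calls varied with the level. With all 6 libraries, genes of 1 to 5 CPM were called higher 24 times and lower 9 times among 2162 tested. Genes of 5 to 20 CPM were almost balanced, with 39 higher and 40 lower of 3083. From 50 to 500 CPM lower calls prevailed: 13 higher and 50 lower of 2277 genes at 50 to 100 CPM, and 12 higher and 49 lower of 2107 at 100 to 500 CPM. The tilt was different without shScr replicate 1. Lower calls then exceeded higher calls at low levels (10.7% against 5.41% at 1 to 5 CPM), and higher calls exceeded lower calls at high levels (18.5% against 14.9% at 100 to 500 CPM, and 25.9% against 9.31% at 500 CPM or more). The share called depends on the counts available as well as on the size of change, and these are descriptions over genes, which are not replicates.

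**Figure D2:**
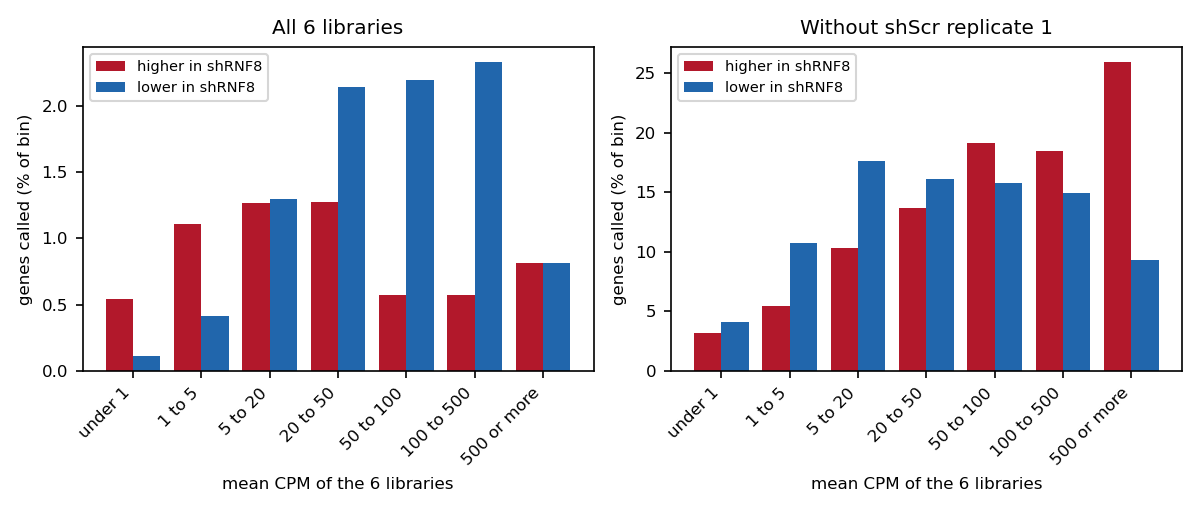
Bars give the share of tested genes called higher or lower in shRNF8 (y axis, %, with a different scale in each panel) in bins of mean CPM (x axis), with all 6 libraries on the left and without shScr replicate 1 on the right. Lower calls lead from 20 to 500 CPM on the left, whereas higher calls lead from 50 CPM upward on the right.

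Calls were also counted by gene length and position. Genes spanning 100 to 200 kb were called higher in 2.14% and lower in 1.796% of cases, and genes of 200 kb or more in 2.07% and 1.20%. Among genes under 5 kb these shares were 0.624% and 1.31%. Long genes thus lay more often on the higher side, CADM1 and NRP2 among them. Genes without a single mapped locus, such as CNTNAP2, were left out of these shares. Without shScr replicate 1 long genes lay more often on the lower side (19.8% lower and 9.25% higher at 100 to 200 kb), so this order of the directions turned with 1 control library. Over all genes tested, 0.97% were called higher and 1.57% lower. Chromosome 19 had 1 higher and 16 lower genes of 977 (0.102% and 1.64%), so its share of lower genes was near that of all genes. Chromosome 9 had 5 and 18 of 596 (0.839% and 3.02%), and chromosome 4 had 11 and 9 of 491 (2.24% and 1.83%). The median log2 fold change of a chromosome lay between -0.065 (chromosome 19) and 0.023 (chromosome 2). Protein-coding genes were called in 1.01% (higher) and 1.62% (lower) of 12862 cases and long noncoding RNAs in 0.515% and 0.858% of 583, with median levels of 30.5 and 1.96 CPM.

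Some of the most abundant transcripts of the cells were among the called genes. DCBLD2, a neuropilin-like membrane receptor, had 926, 1146 and 1076 CPM in shScr and 1599, 1614 and 1592 CPM in shRNF8 and rose 1.53-fold (log2 change 0.61 with SE 0.10, adjusted p = 0.00978 in edgeR). MMP1, the interstitial collagenase, rose from 224, 263 and 229 CPM in shScr to 343, 415 and 385 CPM in shRNF8 (log2 change 0.67 with SE 0.10, adjusted p = 0.00809 in edgeR). It shares 225 bp of exon with WTAPP1. NT5E, the ecto-nucleotidase CD73 that makes adenosine outside the cell, rose from 142, 173 and 158 CPM in shScr to 221, 245 and 230.2 CPM in shRNF8 (log2 change 0.56 with SE 0.10, adjusted p = 0.0139 in edgeR). The groups did not overlap for any of these 3 genes, nor for 25.3% of all tested genes. POLR2A, the catalytic subunit of RNA polymerase II (288 ± 37.1 to 411 ± 41.0 CPM), ARL6IP1, a protein that shapes the endoplasmic reticulum (234 ± 23.4 to 326 ± 37.1 CPM), and PEG10, an imprinted gene derived from a retrotransposon (164 ± 8.64 to 214 ± 10.4 CPM), rose by log2 0.39 to 0.51 (edgeR adjusted p from 0.0402 to 0.0444). The calls of POLR2A, ARL6IP1 and PEG10 ended when any single library except shScr replicate 1 was omitted (edgeR adjusted p from 0.0881 to 0.193). DCBLD2 lost the call without shRNF8 replicate 1, 2 or 3 (edgeR adjusted p from 0.0609 to 0.0803). MMP1 lost the call without shRNF8 replicate 2 or 3 (edgeR adjusted p from 0.0690 to 0.0699). NT5E lost the call without shRNF8 replicate 1, 2 or 3 or shScr replicate 3 (edgeR adjusted p from 0.0599 to 0.114). PEG10 also lost it under the replicate block (edgeR adjusted p = 0.0662).

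On the lower side, EEF1A2, a tissue-restricted translation elongation factor, fell from 369, 468 and 499 CPM in shScr to 256, 262 and 246 CPM in shRNF8 (log2 change -0.81 with SE 0.11, adjusted p = 0.00551 in edgeR). FSTL1, a secreted follistatin-like glycoprotein, fell from 613, 651 and 644 CPM in shScr to 438, 412 and 455 CPM in shRNF8 (log2 change -0.55 with SE 0.085, adjusted p = 0.00852 in edgeR). IL7R, the receptor of interleukin-7, had 287, 487 and 456 CPM in shScr and 249.7, 246 and 246 CPM in shRNF8 (log2 change -0.73 with SE 0.17, adjusted p = 0.0485 in edgeR). Its control libraries were far apart, with shScr replicate 1 nearest to shRNF8. FTH1, the ferritin heavy chain that stores iron, fell from 4889.6 ± 465 to 3615 ± 118 CPM (log2 change -0.44 with SE 0.094, adjusted p = 0.0371 in edgeR). It has many processed copies in the genome, and its counts may be split with them. PHGDH, which opens serine synthesis (503 ± 9.28 to 373 ± 8.37 CPM), NSUN2, an RNA cytosine methyltransferase (436 ± 50.4 to 315 ± 16.9 CPM), and PPP6R1, a phosphatase regulatory subunit (380.4 ± 55.3 to 270 ± 18.4 CPM), had log2 changes from -0.49 to -0.43 (edgeR adjusted p from 0.0204 to 0.0438). The calls of FTH1, PHGDH, NSUN2, IL7R and PPP6R1 ended when any single library except shScr replicate 1 was omitted (edgeR adjusted p from 0.0559 to 0.205). FSTL1 lost the call without shRNF8 replicate 1 or 2 (edgeR adjusted p from 0.0655 to 0.100). EEF1A2 lost the call without shRNF8 replicate 3 (edgeR adjusted p = 0.0729). IL7R also lost it under scaling by library size, no count filter, the minimum of 5 CPM or limma-voom (edgeR or limma adjusted p from 0.0575 to 0.0826).

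Gene groups were read against the 2.54% called over all genes (27.3% without shScr replicate 1) and an all-gene median log2 change of -0.0048 (-0.0019 without that replicate). They were not tested as groups. Of 28 genes listed as growth factor ligands 4 rose, 2 fell and 22 did not pass, so 21.4% were called. Beside FGF5, FGF13, an intracellular fibroblast growth factor homologue, rose from 1.34, 2.49 and 2.68 CPM in shScr to 5.76, 6.82 and 6.596 CPM in shRNF8 (log2 change 1.55, adjusted p = 0.0120 in edgeR). Beside PDGFA, the angiogenic factor VEGFA fell from 31.2, 41.5 and 46.4 CPM in shScr to 23.7, 22.7 and 20.6 CPM in shRNF8 (log2 change -0.83, adjusted p = 0.0139 in edgeR). Outside the naming rule were KITLG, the ligand of KIT, and PDGFD with log2 changes of 1.08 (adjusted p = 0.0481 in edgeR) and 1.24 (adjusted p = 0.04999 in edgeR), each called in 1 of the 6 single omissions. PDGFA and VEGFA fell while FGF5 and FGF13 rose. The median of the ligands was 0.14 with all 6 libraries and 0.051 without shScr replicate 1, and -0.079 for members of at least 5 CPM, with 8 higher and 8 lower members called without that library. Of 26 genes listed as receptor tyrosine kinases 0 rose, 2 fell and 24 did not pass. The 2 lower genes are of the fibroblast growth factor receptor family, and FGFRL1 lacks the tyrosine kinase domain. FGFR4 fell from 71.7, 75.3 and 82.9 CPM in shScr to 50.02, 57.2 and 47.01 CPM in shRNF8 (log2 change -0.58, adjusted p = 0.0184 in edgeR). FGFRL1 fell from 133, 139.6 and 154 CPM in shScr to 109, 91.6 and 82.8 CPM in shRNF8 (log2 change -0.59, adjusted p = 0.0204 in edgeR). The ligand gene FGF5 thus rose while these receptor genes fell. The median of this group was -0.27 with all 6 libraries and -0.37 without shScr replicate 1, where 3 higher and 12 lower members passed. The call of FGFR4 ended when any single library except shScr replicate 1 was omitted (edgeR adjusted p from 0.0543 to 0.113). FGF13 lost the call without shRNF8 replicate 1, 2 or 3 (edgeR adjusted p from 0.0559 to 0.106). VEGFA lost the call without shRNF8 replicate 1, 2 or 3 or shScr replicate 3 (edgeR adjusted p from 0.0563 to 0.135). FGFRL1 lost the call without shRNF8 replicate 2 or 3 or shScr replicate 2 or 3 (edgeR adjusted p from 0.0577 to 0.132).

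Axon guidance genes, many of which act on cell migration outside the nervous system too, numbered 62, of which 3 rose, 1 fell and 58 did not pass (6.45% called). Besides NRP2, the related co-receptor NRP1 rose from 20.5, 19.2 and 17.1 CPM in shScr to 28.3, 30.2 and 29.96 CPM in shRNF8 (log2 change 0.64, adjusted p = 0.0147 in edgeR). DPYSL3, a cytoplasmic mediator of semaphorin signals, rose from 120.5 ± 10.9 to 162 ± 0.969 CPM (log2 change 0.42, adjusted p = 0.0362 in edgeR), while the ligand SEMA3F fell from 27.3 ± 2.13 to 17.9 ± 1.896 CPM (log2 change -0.61, adjusted p = 0.0290 in edgeR). Both neuropilins thus rose and their ligand SEMA3F fell, each with no overlap of the groups, as in 25.3% of all tested genes. The group median was -0.15 with all 6 libraries and -0.25 without shScr replicate 1, and 10 higher and 16 lower members passed without that library. Of 16 genes of the insulin-like growth factor axis 1 rose, 2 fell and 13 did not pass. IGFBP4, a binding protein, rose (23.02 ± 0.939 to 34.9 ± 1.16 CPM, log2 change 0.60, adjusted p = 0.0120 in edgeR). The binding protein IGFBP3 (6.18, 13.3 and 15.5 CPM in shScr and 3.68, 3.64 and 5.14 CPM in shRNF8, log2 change -1.49, adjusted p = 0.0363 in edgeR) and the mRNA-binding protein IGF2BP2 (57.8 ± 6.299 to 34.9 ± 2.88 CPM, log2 change -0.73, adjusted p = 0.00821 in edgeR) fell. Of 46 WNT pathway genes, TRABD2A and the receptor FZD6 (54.5 ± 1.62 to 77.5 ± 4.71 CPM, log2 change 0.51, adjusted p = 0.0159 in edgeR) rose and 44 did not pass. Of 28 Notch pathway genes DTX2, a ubiquitin ligase, fell (36.3 ± 0.692 to 25.6 ± 3.19 CPM, log2 change -0.50, adjusted p = 0.0440 in edgeR). The calls of NRP1, DPYSL3, SEMA3F, IGFBP4, IGFBP3, FZD6 and DTX2 ended when any single library except shScr replicate 1 was omitted (edgeR adjusted p from 0.0521 to 0.185). IGF2BP2 lost the call without shRNF8 replicate 1 or 3 (edgeR adjusted p from 0.0646 to 0.0804). IGFBP3 also lost it under scaling by library size, no count filter or limma-voom (edgeR or limma adjusted p from 0.0502 to 0.0976). DTX2 also lost it under scaling by library size (edgeR adjusted p = 0.0570).

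Inside the cell, of 72 phosphoinositide enzymes 1 rose, 2 fell and 69 did not pass. PLCD3 fell together with PIK3CD, a catalytic PI3K subunit (153 ± 19.8 to 105 ± 10.2 CPM, log2 change -0.55, adjusted p = 0.0330 in edgeR), and the regulatory subunit PIK3R3 rose (11.5 ± 0.708 to 18.5 ± 0.599 CPM, log2 change 0.68, adjusted p = 0.0147 in edgeR). Of 39 genes of mTORC1 and its regulators, the inhibitory TSC complex subunit TBC1D7 (9.99, 11.7 and 13.3 CPM in shScr and 5.65, 5.74 and 5.87 CPM in shRNF8, log2 change -1.02, adjusted p = 0.00921 in edgeR) and the stress-induced inhibitor DDIT4 (22.1, 47.3 and 45.6 CPM in shScr and 15.1, 13.9 and 10.9 CPM in shRNF8, log2 change -1.53, adjusted p = 0.0250 in edgeR) fell and 37 did not pass. Of 89 regulators of small GTPases 0 rose and 4 fell. Beside TBC1D10B and TBC1D7 these were the RhoA activator ARHGEF2 (197 ± 23.6 to 142 ± 6.101 CPM, log2 change -0.47, adjusted p = 0.0381 in edgeR) and TBC1D1, which acts on glucose transporter traffic (119.6 ± 12.8 to 87.98 ± 3.098 CPM, log2 change -0.44, adjusted p = 0.0402 in edgeR). With that control library left out, 7 higher and 23 lower members of this group were called. PKIB, an inhibitor of protein kinase A, rose from 4.17, 4.28 and 2.28 CPM in shScr to 10.6, 8.56 and 13.03 CPM in shRNF8 (log2 change 1.58, adjusted p = 0.00964 in edgeR) and was the 1 called gene of 39 in the cyclic AMP group, and NT5E was the 1 of 23 YAP and TAZ targets. Of 25 feedback genes of ERK signalling 0 passed. The smallest p-values were those of CCND1, which encodes cyclin D1 (202 ± 7.19 to 250.2 ± 8.53 CPM, log2 change 0.31, adjusted p = 0.0736 in edgeR), and SPRED3 (23.8 ± 1.06 to 31.9 ± 4.27 CPM, log2 change 0.42, adjusted p = 0.0874 in edgeR). The calls of PIK3R3, PIK3CD, DDIT4, ARHGEF2 and TBC1D1 ended when any single library except shScr replicate 1 was omitted (edgeR adjusted p from 0.0521 to 0.180). TBC1D7 lost the call without shRNF8 replicate 1, 2 or 3 or shScr replicate 3 (edgeR adjusted p from 0.0512 to 0.0778). PKIB lost the call without shRNF8 replicate 1 or 3 (edgeR adjusted p from 0.0577 to 0.0993). DDIT4 also lost it under no count filter, limma-voom or the replicate block (edgeR or limma adjusted p from 0.0691 to 0.111). ARHGEF2 and TBC1D1 also lost it under scaling by library size (edgeR adjusted p from 0.0544 to 0.0566).

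Matrix genes moved in both directions. Of 45 laminins and matrix glycoproteins 4 rose, 1 fell and 40 did not pass (11.1% called). Higher members were the proteoglycan VCAN (7.26, 9.54 and 10.3 CPM in shScr and 21.7, 19.3 and 18.7 CPM in shRNF8, log2 change 1.14, adjusted p = 0.00488 in edgeR), ECM1 (76.5, 94.2 and 102 CPM in shScr and 149.9, 165 and 144 CPM in shRNF8, log2 change 0.75, adjusted p = 0.00821 in edgeR) and the elastic fibre protein FBLN5 (10.3 ± 0.438 to 17.8 ± 1.79 CPM, log2 change 0.79, adjusted p = 0.0120 in edgeR). FBLN2, a basement membrane fibulin outside the naming rule, fell by 0.45 on the log2 scale (edgeR adjusted p = 0.0451), and was called in 1 of the 6 single omissions. The median of all members was nonetheless -0.057 with all 6 libraries and -0.17 without shScr replicate 1, and 8 higher and 15 lower were called without that library, so the larger number of higher members was not kept. Over the settings tried this median ran from -0.17 to 0.029, the latter without shScr replicate 3. Of 45 metalloproteases and inhibitors 4 rose, 2 fell and 39 did not pass (13.3% called), with 9 higher and 9 lower without shScr replicate 1. Besides MMP1, the inhibitor TIMP3 (16.7, 13.2 and 15.5 CPM in shScr and 27.5, 23.7 and 30.4 CPM in shRNF8, log2 change 0.84, adjusted p = 0.0107 in edgeR) and the membrane protease ADAM19 (17.2 ± 1.87 to 29.4 ± 3.897 CPM, log2 change 0.78, adjusted p = 0.0137 in edgeR) rose, and the membrane-type protease MMP15 fell (15.2 ± 1.47 to 9.36 ± 0.7901 CPM, log2 change -0.70, adjusted p = 0.0265 in edgeR). The calls of ADAM19 and MMP15 ended when any single library except shScr replicate 1 was omitted (edgeR adjusted p from 0.0529 to 0.142). VCAN lost the call without shRNF8 replicate 3 (edgeR adjusted p = 0.0519). ECM1 lost the call without shRNF8 replicate 2 or 3 (edgeR adjusted p from 0.0645 to 0.0674). FBLN5 lost the call without shRNF8 replicate 2 or 3 or shScr replicate 3 (edgeR adjusted p from 0.0562 to 0.0815). TIMP3 lost the call without shRNF8 replicate 1 or 3 (edgeR adjusted p from 0.0661 to 0.0881).

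Adhesion molecules changed singly. CDH11, a mesenchymal cadherin, had 35.8, 21.4 and 19.2 CPM in shScr and 68.2, 71.5 and 73.9 CPM in shRNF8 (log2 change 1.48 with SE 0.20, adjusted p = 0.00646 in edgeR). Its shScr replicate 1 was the highest control. PCDH7, a protocadherin, rose from 5.28 ± 1.58 to 11.4 ± 0.923 CPM (log2 change 1.11, adjusted p = 0.0193 in edgeR), and 38 of 40 cadherins did not pass. CD24, a glycosylated surface protein, rose from 6.13, 10.4 and 7.75 CPM in shScr to 18.3, 21.8 and 21.8 CPM in shRNF8 (log2 change 1.35 with SE 0.18, adjusted p = 0.00488 in edgeR). The tetraspanin CD9 rose from 57.2 ± 7.89 to 84.99 ± 5.48 CPM (log2 change 0.57, adjusted p = 0.0265 in edgeR). They were the called members of 45 claudins, tetraspanins and junction proteins. Of 18 integrins 1 fell, the hemidesmosome subunit ITGB4 (16.1, 24.8 and 22.9 CPM in shScr and 12.5, 14.3 and 10.4 CPM in shRNF8, log2 change -0.78, adjusted p = 0.0451 in edgeR). The coagulation inhibitor TFPI fell (6.39, 13.4 and 13.7 CPM in shScr and 3.47, 4.46 and 4.19 CPM in shRNF8, log2 change -1.47, adjusted p = 0.0217 in edgeR) as the 1 called gene of 22 in its group. For both ITGB4 and TFPI, shScr replicate 1 lay between the other controls and shRNF8. CDH11 was also the 1 called gene of 15 transcription factors and effectors of epithelial-mesenchymal transition, whose median turned from 0.16 to -0.079 without shScr replicate 1. The calls of PCDH7, ITGB4 and TFPI ended when any single library except shScr replicate 1 was omitted (edgeR adjusted p from 0.0677 to 0.215). CDH11 and CD24 lost the call without shRNF8 replicate 3 (edgeR adjusted p from 0.0645 to 0.0699). CD9 lost the call without shRNF8 replicate 1, 2 or 3 or shScr replicate 3 (edgeR adjusted p from 0.0782 to 0.150). ITGB4 also lost it under scaling by library size, the minimum of 5 CPM or limma-voom (edgeR or limma adjusted p from 0.0600 to 0.0649). TFPI also lost it under limma-voom (limma adjusted p = 0.0671).

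Most transporter genes did not pass, and among the called solute carriers lower genes outnumbered higher ones. Of 214 solute carriers 2 rose, 13 fell and 199 did not pass (7.01% called), and 19 higher and 55 lower passed without shScr replicate 1, at a median of -0.080 with all 6 libraries and -0.092 without shScr replicate 1. SLC43A2, a carrier of large neutral amino acids, fell from 21.5, 30.1 and 30.4 CPM in shScr to 13.5, 14.5 and 13.1 CPM in shRNF8 (log2 change -0.99 with SE 0.15, adjusted p = 0.00710 in edgeR). SLC25A44, a mitochondrial carrier of branched-chain amino acids, fell from 84.9 ± 0.192 to 62.9 ± 2.24 CPM (log2 change -0.43, adjusted p = 0.0250 in edgeR). With SLC25A26 these had the smallest p of the lower carriers. SLC9A3R1, a scaffold protein that only shares the symbol, is among the 13. The 13 lower genes ran from -1.82 to -0.39 on the log2 scale, and SLC6A17, a vesicular amino acid transporter, rose (15.8 ± 0.988 to 24.2 ± 2.37 CPM, log2 change 0.62, adjusted p = 0.0250 in edgeR). Ion channels had 2 called members of 99. Both were M-type potassium channel subunits that rose, KCNQ3 (16.8, 21.3 and 18.4 CPM in shScr and 30.1, 32.5 and 29.5 CPM in shRNF8, log2 change 0.71, adjusted p = 0.0129 in edgeR) and KCNQ5 (10.7, 11.9 and 10.3 CPM in shScr and 16.2, 16.6 and 16.4 CPM in shRNF8, log2 change 0.58, adjusted p = 0.0362 in edgeR). Of the cytoskeleton, ARPIN, an inhibitor of the actin-nucleating Arp complex, fell from 18.3, 30.1 and 29.9 CPM in shScr to 10.5, 10.7 and 8.89 CPM in shRNF8 (log2 change -1.38 with SE 0.19, adjusted p = 0.00516 in edgeR) as the 1 called gene of 58 actin regulators. Its exons overlap those of C15orf38-AP3S2. Among 63 tubulin and kinesin genes the microtubule-associated MAP1A rose (13.98 ± 0.345 to 21.01 ± 2.35 CPM, log2 change 0.59, adjusted p = 0.0342 in edgeR) and TUBGCP3, of the gamma-tubulin complex, fell (64.9 ± 2.48 to 47.9 ± 0.961 CPM, log2 change -0.44, adjusted p = 0.0290 in edgeR). Of 72 G protein-coupled receptors ADGRG1 fell (28.5 ± 1.61 to 19.8 ± 1.13 CPM, log2 change -0.52, adjusted p = 0.0329 in edgeR). The calls of SLC6A17, SLC25A44, KCNQ5, TUBGCP3, MAP1A and ADGRG1 ended when any single library except shScr replicate 1 was omitted (edgeR adjusted p from 0.0709 to 0.181). SLC43A2 lost the call without shRNF8 replicate 1 or 3 (edgeR adjusted p from 0.0558 to 0.0881). KCNQ3 lost the call without shRNF8 replicate 1, 2 or 3 or shScr replicate 3 (edgeR adjusted p from 0.0563 to 0.105). ARPIN lost the call without shRNF8 replicate 3 (edgeR adjusted p = 0.0804).

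In lipid metabolism the called genes of sphingolipid synthesis stood at a branch point. UGCG, which makes glucosylceramide, fell from 170.1, 194 and 181 CPM in shScr to 117, 112 and 126 CPM in shRNF8 (log2 change -0.62 with SE 0.090, adjusted p = 0.00646 in edgeR). UGT8, which makes galactosylceramide from the same substrate, rose from 3.55, 3.09 and 2.43 CPM in shScr to 7.47, 8.05 and 7.38 CPM in shRNF8 (log2 change 1.33 with SE 0.19, adjusted p = 0.00646 in edgeR). The groups did not overlap for either gene, as in 25.3% of all tested genes. UGT8 was the far rarer transcript, and 33 of 35 members did not pass. Of 35 fatty acid enzymes the desaturase-family gene FADS3 (64.04, 83.1 and 93.98 CPM in shScr and 52.05, 45.9 and 41.7 CPM in shRNF8, log2 change -0.79, adjusted p = 0.0164 in edgeR) and the elongase ELOVL6 (46.2 ± 0.946 to 33.3 ± 1.31 CPM, log2 change -0.47, adjusted p = 0.0250 in edgeR) fell. Of 63 lysosomal genes CTSS, a cysteine protease of antigen processing, rose from 28.4, 46.3 and 45.2 CPM in shScr to 87.03, 100.04 and 106 CPM in shRNF8 (log2 change 1.29 with SE 0.17, adjusted p = 0.00492 in edgeR), and 62 did not pass. Of the stress groups, the next 3 held 1 call each, 3.45%, 1.47% and 4.35% of their tested members, against 2.54% over all genes. FTH1 was the 1 called gene of 29 NRF2 targets and antioxidant enzymes, HSPA12A (53.04 ± 9.16 to 32.7 ± 3.699 CPM, log2 change -0.70, adjusted p = 0.0264 in edgeR) of 68 heat shock and DNAJ genes, and the zinc transporter SLC39A7 (77.3 ± 4.19 to 58.2 ± 1.96 CPM, log2 change -0.41, adjusted p = 0.0384 in edgeR) of 23 metallothionein and zinc genes. The calls of FADS3, ELOVL6, HSPA12A and SLC39A7 ended when any single library except shScr replicate 1 was omitted (edgeR adjusted p from 0.0555 to 0.202). UGT8 lost the call without shRNF8 replicate 2 or 3 (edgeR adjusted p from 0.0563 to 0.0645). UGCG lost the call without shRNF8 replicate 1 or 2 (edgeR adjusted p from 0.0577 to 0.0688). CTSS lost the call without shRNF8 replicate 3 (edgeR adjusted p = 0.0645). SLC39A7 also lost it under the replicate block (edgeR adjusted p = 0.0629).

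Groups without a called member with edgeR and all 6 libraries were 30 genes of the unfolded protein response, 29 p53 targets, 41 autophagy genes, 36 of nucleotide synthesis, 28 of the nuclear pore and 46 translation initiation factors, beside the lists of ERK feedback, cullin ligases, Mediator and snoRNA hosts (the called host C6orf48, described with the noncoding genes, is not on that list). Values nearest to a call were those of ATF6, a sensor of the unfolded protein response (49.8 ± 5.201 to 34.8 ± 4.59 CPM, log2 change -0.52, adjusted p = 0.0525 in edgeR), the p53 targets TP53I3 (8.099 ± 1.56 to 12.5 ± 0.213 CPM, log2 change 0.63, adjusted p = 0.0650 in edgeR) and SESN2 (41.8 ± 6.26 to 30.5 ± 2.82 CPM, log2 change -0.45, adjusted p = 0.0853 in edgeR), and NUP88 of the nuclear pore (71.8 ± 6.61 to 92.1 ± 2.82 CPM, log2 change 0.36, adjusted p = 0.0705 in edgeR). Without shScr replicate 1, 27.3% of all tested genes were called, 12.8% higher and 14.5% lower. In that fit the share called was 39.3% for the nuclear pore and 34.8% for translation initiation. It was 25% for nucleotide synthesis and 25% for 76 mitochondrial ribosomal proteins. By direction, 11 higher and 0 lower members were called for the nuclear pore and 9 and 0 for nucleotide synthesis. For translation initiation these were 14 and 2, and for the mitochondrial ribosome 16 and 3. RRM2, the small subunit of ribonucleotide reductase, is an example, with 900.4, 602 and 593 CPM in shScr and 911, 860.4 and 1004 CPM in shRNF8. Its shScr replicate 1 was as high as shRNF8, and the log2 change was 0.41 (adjusted p = 0.170 in edgeR) with all 6 libraries and 0.63 (adjusted p = 2.93e-05 in edgeR) without it. EIF4G2, a translation initiation regulator, had 867, 642 and 619 CPM in shScr and 956, 943 and 1039 CPM in shRNF8, again with shScr replicate 1 near shRNF8. The medians of shScr replicate 1 against replicates 2 and 3 on the log2 scale were 0.22 for nucleotide synthesis, 0.18 for the nuclear pore, 0.28 for the mitochondrial ribosome and 0.17 for translation initiation, each larger than the median of shRNF8 against shScr replicates 2 and 3, of 0.16, 0.16, 0.14 and 0.072. The mitochondrial ribosomal gene MRPL14 was called with all 6 libraries and fell, from 30.6, 24.6 and 25.7 CPM in shScr to 17.97, 14.8 and 17.2 CPM in shRNF8 (log2 change -0.70, adjusted p = 0.0198 in edgeR). MRPL14 lost the call without shRNF8 replicate 1, 2 or 3 or shScr replicate 3 (edgeR adjusted p from 0.0529 to 0.132).

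Of 127 RING and TRIM ubiquitin ligases, the family of RNF8, 1 rose, 3 fell and 123 did not pass. That was 3.15% called, against 2.54% over all genes, and RNF8, the target of the hairpin, was 1 of the 3 lower genes. RNF125, a ligase of antiviral receptors, rose from 8.19, 8.29 and 7.19 CPM in shScr to 13.9, 14.2 and 13.2 CPM in shRNF8 (log2 change 0.80, adjusted p = 0.0125 in edgeR). RNF187 fell (226 ± 11.4 to 169.5 ± 6.77 CPM, log2 change -0.42, adjusted p = 0.0299 in edgeR), as did TRIM16L (33.6, 47.4 and 47.95 CPM in shScr and 27.6, 24.4 and 26.1 CPM in shRNF8, log2 change -0.72, adjusted p = 0.0232 in edgeR), an expressed pseudogene that shares sequence with TRIM16. RNF8 itself, at 3.15-fold, had the largest change of the called members. Among 70 deubiquitinating enzymes (1.43% called) OTUD1 fell (49.8 ± 4.15 to 33.7 ± 1.31 CPM, log2 change -0.56, adjusted p = 0.0154 in edgeR). Of 55 lysine methylation genes 0 rose, 2 fell and 53 did not pass (3.64% called). Of 35 acetylation genes 0 rose, 1 fell and 34 did not pass (2.86% called). The lower genes of these 2 groups were DOT1L, the methyltransferase of a histone H3 lysine in transcribed genes (80.7, 75.9 and 81.5 CPM in shScr and 55.99, 53.6 and 48.4 CPM in shRNF8, log2 change -0.59, adjusted p = 0.00994 in edgeR), KDM5A, a demethylase (54.4 ± 3.45 to 37.8 ± 2.17 CPM, log2 change -0.53, adjusted p = 0.0193 in edgeR), and BRD3, which reads acetylated histones (66.3 ± 6.69 to 44.9 ± 4.99 CPM, log2 change -0.56, adjusted p = 0.0299 in edgeR). Each shares exon sequence with a neighbour, DOT1L with PLEKHJ1, KDM5A with CCDC77 and BRD3 with LINC00094. Of transcription factors, HOXC13 (10.5 ± 1.06 to 6.03 ± 0.722 CPM, log2 change -0.80, adjusted p = 0.0291 in edgeR) and SOX13 (30.8 ± 2.47 to 20.3 ± 3.21 CPM, log2 change -0.60, adjusted p = 0.0407 in edgeR) fell, each the 1 called member, of 25 HOX (4% called) and 68 SOX, FOX, GATA, RUNX and ETS genes (1.47% called). The calls of TRIM16L, RNF187, OTUD1, HOXC13, SOX13, KDM5A and BRD3 ended when any single library except shScr replicate 1 was omitted (edgeR adjusted p from 0.0626 to 0.158). RNF125 lost the call without shRNF8 replicate 1, 2 or 3 or shScr replicate 3 (edgeR adjusted p from 0.0695 to 0.100). DOT1L lost the call without shRNF8 replicate 2 or 3 or shScr replicate 3 (edgeR adjusted p from 0.0507 to 0.0741).

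Few noncoding genes were called. EMX2OS, an antisense RNA of the homeobox gene EMX2, rose from 6.08, 7.53 and 7.697 CPM in shScr to 11.9, 12.5 and 11.6 CPM in shRNF8 (log2 change 0.76, adjusted p = 0.0265 in edgeR). LINC01605 rose from 0.824, 0.813 and 1.27 CPM in shScr to 3.25, 2.92 and 2.96 CPM in shRNF8 (log2 change 1.64, adjusted p = 0.0138 in edgeR). C6orf48, a snoRNA host, fell from 71.4, 89.8 and 88.01 CPM in shScr to 57.2, 57.6 and 58.4 CPM in shRNF8 (log2 change -0.53, adjusted p = 0.0265 in edgeR). THRIL, whose exons overlap BRI3BP, fell too (34.3 ± 1.39 to 24.9 ± 2.01 CPM, log2 change -0.46, adjusted p = 0.0451 in edgeR), as did the pseudogene FRG1HP (9.91 ± 1.83 to 5.57 ± 0.213 CPM, log2 change -0.83, adjusted p = 0.0362 in edgeR), and MIR600HG (6.63 ± 1.18 to 3.11 ± 0.228 CPM, log2 change -1.09, adjusted p = 0.0194 in edgeR). The microRNA locus MIR614 fell too (22.2, 28.3 and 25.9 CPM in shScr and 15.8, 14.5 and 16.4 CPM in shRNF8, log2 change -0.71, adjusted p = 0.0161 in edgeR). Counts of polyadenylated fragments over that locus do not measure the mature microRNA. The 7 genes named here had no overlap of the groups, as had 25.3% of all tested genes, and the same levels chose them as called. Pseudogene counts may be shared with the parent genes. Of 123 LINC genes 2 rose, 1 fell and 120 did not pass (2.44% called, against 2.54% over all genes). Of 283 antisense genes 1 rose, 0 fell and 282 did not pass (0.353% called). The calls of EMX2OS, THRIL, C6orf48, MIR614, FRG1HP and MIR600HG ended when any single library except shScr replicate 1 was omitted (edgeR adjusted p from 0.0659 to 0.209). LINC01605 lost the call without shRNF8 replicate 1, 2 or 3 or shScr replicate 2 (edgeR adjusted p from 0.0595 to 0.0881). THRIL also lost it under scaling by library size or the replicate block (edgeR adjusted p from 0.0557 to 0.0570). Counting without strand also means that reads may be shared where exons of other genes named here overlap a neighbour, as for BHLHE40 (BHLHE40-AS1), FTH1 (BEST1), FSTL1 (MIR198), DTX2 (FDPSP2), PIK3CD (CLSTN1), SLC39A7 (RXRB), HOXC13 (HOXC13-AS), NUP88 (RABEP1 and RPAIN), IL6 (LOC541472) and ATF5 (IL4I1 and NUP62).

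**Figure D3:**
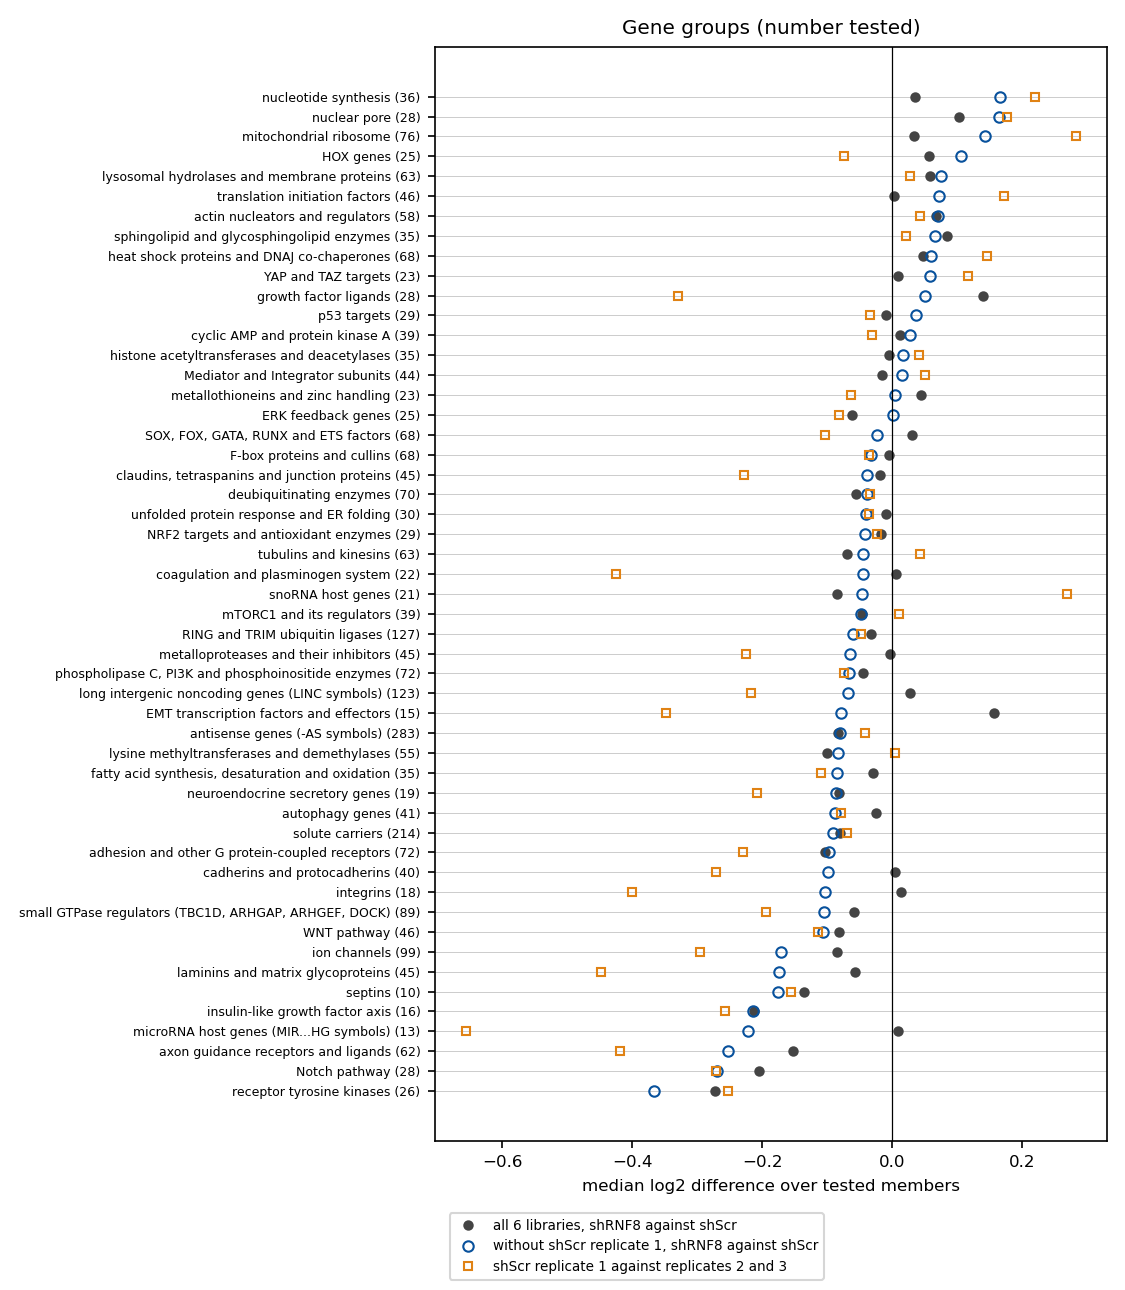
Median log2 difference over the tested members of each gene group (x axis), with the number of members in brackets; filled circles are shRNF8 against shScr with all 6 libraries, open circles the same without shScr replicate 1, and squares shScr replicate 1 against shScr replicates 2 and 3. Circles lie between -0.37 and 0.16, and the squares spread wider, down to -0.66.

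The 3466 genes called only without shScr replicate 1 were placed on a scale from the mean of shScr replicates 2 and 3 (0%) to the shRNF8 mean (100%), on log2 levels. shScr replicate 1 lay nearer to shRNF8 for 2559 of them (73.8%), at a median of 84.9%, and beyond the shRNF8 mean for 1308. For the 356 genes called with all 6 libraries the median was 13.6%, with 46 nearer to shRNF8, and for the 36 that passed in every fit it was 0.999%. shScr replicates 2 and 3 enter both the calls and this scale, and the call with all 6 libraries uses shScr replicate 1, so these figures describe the library and test nothing. The cytokine IL6 is an example, with 30.3, 121 and 120.2 CPM in shScr and 38.5, 37.4 and 33.8 CPM in shRNF8. Its log2 change was -1.31 (adjusted p = 0.269 in edgeR) with all 6 libraries and -1.72 (adjusted p = 6.68e-10 in edgeR) without that replicate. LCN2, an iron-siderophore carrier of inflammation, had 3.45, 40.9 and 37.6 CPM in shScr and 5.39, 4.51 and 4.36 CPM in shRNF8 (log2 change -3.04, adjusted p = 1.03e-10 in edgeR, without it). LOX, which cross-links collagen, had 2.52, 12.5 and 10.5 CPM in shScr and 2.13, 3.33 and 2.52 CPM in shRNF8 (log2 change -2.11, adjusted p = 7.81e-07 in edgeR, without it). In all 3 genes shScr replicate 1 sat among or below the shRNF8 libraries. The other lower genes of this kind by the naming rule were the short-chain collagen COL8A1, the pseudogene FER1L4, the ribonuclease RNASE4, which overlaps ANG, the secreted glycoprotein CHI3L1 and the chemokine CCL5 (-1.99 to -1.75 without it, edgeR adjusted p with all 6 libraries from 0.0781 to 0.367).

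Among the higher genes of this kind, the matricellular protein gene THBS1 had 22.0, 11.7 and 12.4 CPM in shScr and 27.8, 25.6 and 29.3 CPM in shRNF8 and log2 changes of 0.84 (adjusted p = 0.0652 in edgeR) with all 6 libraries and 1.19 (adjusted p = 1.97e-06 in edgeR) without shScr replicate 1. MEPCE, a capping enzyme of the small nuclear RNA that holds back transcription elongation, had 61.7, 24.9 and 25.9 CPM in shScr and 53.2, 50.6 and 52.9 CPM in shRNF8 and log2 changes of 0.48 (adjusted p = 0.485 in edgeR) and 1.04 (adjusted p = 8.71e-07 in edgeR). MEPCE was highest in shScr replicate 1 itself, and its exons overlap those of ZCWPW1. FAIM, an inhibitor of apoptosis, THNSL1, SMPDL3A, LY6K, BTBD11 and RPP40, a subunit of ribonuclease P, rose by 1.06 to 1.30 on the log2 scale without it, and none passed with all 6 libraries (edgeR adjusted p from 0.0752 to 0.237). In shScr replicate 1 immediate-early genes were far above every other library. FOS had 73.7, 5.202 and 3.44 CPM in shScr and 7.84, 8.35 and 8.05 CPM in shRNF8. FOSB, a related subunit of the same dimeric factor, had 30.9, 2.28 and 3.65 CPM in shScr and 2.29, 1.74 and 3.35 CPM in shRNF8. EGR1, a growth-induced zinc finger factor, had 116, 12.6 and 14.03 CPM in shScr and 18.5, 13.8 and 9.11 CPM in shRNF8. DUSP1, a phosphatase of MAP kinases, followed with 527, 117 and 110.4 CPM in shScr and 168, 138 and 144 CPM in shRNF8, and its fitted direction turned with that library, from a log2 change of -0.75 (adjusted p = 0.629 in edgeR) to 0.40 (adjusted p = 0.00422 in edgeR) without it. FOS turned likewise, from -1.76 (adjusted p = 0.534 in edgeR) to 0.91 (adjusted p = 0.00200 in edgeR). Genes far below in that library were CA9, a hypoxia-induced carbonic anhydrase, at 0.721, 44.5 and 58.3 CPM in shScr and 2.24, 11.1 and 2.63 CPM in shRNF8. NDRG1, another gene induced by low oxygen, was at 57.1, 364 and 450.1 CPM in shScr and 79.2, 139 and 58.1 CPM in shRNF8. Neither passed in either fit (edgeR adjusted p = 0.406 and 0.0588 for CA9, and 0.381 and 0.0521 for NDRG1). In both genes shRNF8 replicate 2 lay well above shRNF8 replicates 1 and 3. GBP2, an interferon-induced GTPase, was low in that library too, with 1.75, 12.03 and 10.7 CPM in shScr and 6.83, 8.05 and 5.76 CPM in shRNF8. ZFP36, which destabilises cytokine mRNAs, was high, with 38.2, 8.78 and 12.5 CPM in shScr and 14.8, 11.8 and 12.4 CPM in shRNF8. The stress factor ATF5 had 32.1, 12.2 and 12.8 CPM in shScr and 26.02, 24.6 and 24.9 CPM in shRNF8, so that shScr replicate 1 lay above shRNF8 as well. The cause of the difference between the control libraries was not tested.

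**Figure D4:**
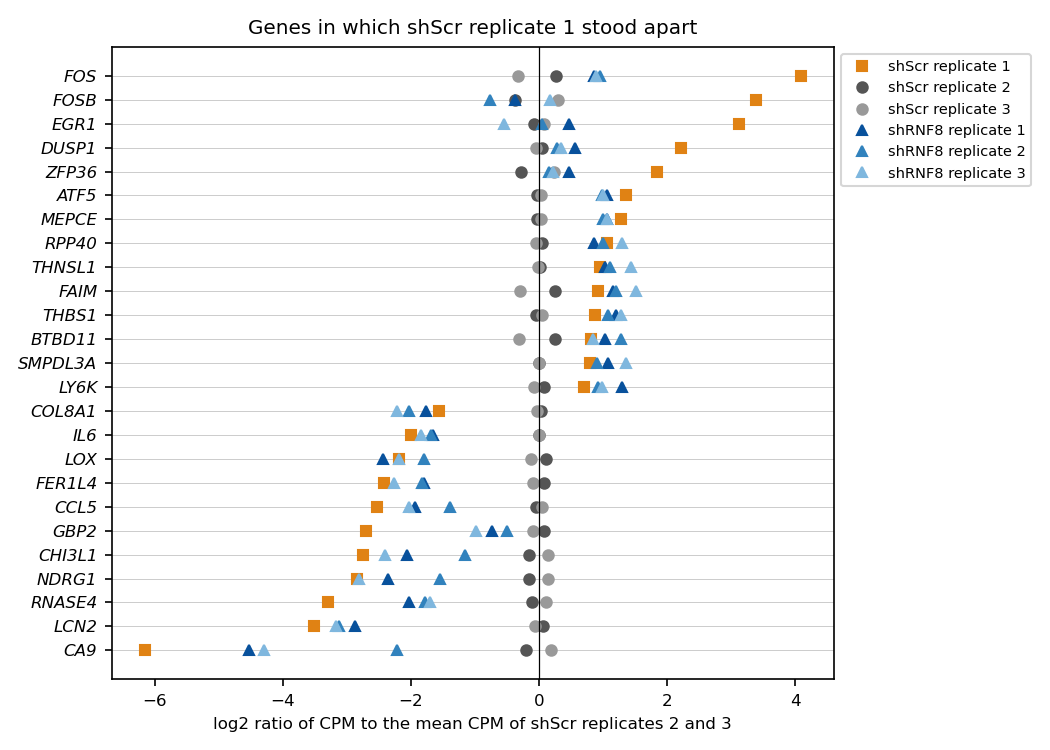
Genes called only without shScr replicate 1 or extreme in that library by the naming rules; the x axis is the log2 ratio of CPM in 1 library to the mean CPM of shScr replicates 2 and 3. The square of shScr replicate 1 lies within or beyond the shRNF8 triangles in most rows and far to the right of every triangle for FOS, at 4.09.

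The same cells were profiled for DNA-RNA hybrids with the S9.6 antibody (DRIP-seq, 2 shScr and 4 shRNF8 libraries), a readout that played no part in calling genes. An S9.6 peak lay within 1000 bp of the start in 36.4% to 47.4% of the 13541 tested genes with a mapped start, depending on the library. Among called higher genes (132 mapped) the share was 19.7% to 26.5%, and among called lower genes (210 mapped) 48.6% to 62.9%. In each of the 6 DRIP libraries, shScr and shRNF8 alike, lower genes had a peak more often and higher genes less often than all tested genes, and this order is a description over genes with no test. No library had a peak at 59.1% of higher and 20.95% of lower genes, against 37.6% of all. The level of the genes moved with this result. The median was 19.3 CPM for higher, 43.96 CPM for lower and 26.5 CPM for all genes, and among uncalled genes a peak in any library was present at 52.96% at 5 to 20 CPM and 73.2% at 50 to 100 CPM. Its part in the result was not tested. Within genes of 5 to 20 CPM a peak in any library was present at 25.6% of 39 higher, 62.5% of 40 lower genes, and within 20 to 50 CPM at 53.8%, 72.3% and 67.2%, so lower genes stood above and higher genes below the uncalled at both levels.

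For higher genes this order was not kept over all levels together among the genes called without shScr replicate 1. No library had a peak at 35.5% of the 1747 higher and 31.6% of the 1953 lower genes with a mapped start, against 39.2% of genes not called there. By library, a peak was present at 37.6% to 49.4% of the higher, 41.3% to 54.6% of the lower and 35.2% to 46.1% of the uncalled genes, and both called groups stood above the uncalled in each of the 6 libraries. Their median levels were 48.7, 30.7 and 22.2 CPM. In shRNF8 replicates 3 and 4 the higher genes did not stand above all tested genes (46.9% against 47.4% and 43.96% against 43.99%). By level, a peak in any library was present at 25.2% of higher and 42.9% of uncalled genes under 5 CPM. The shares were 45.3% and 52.5% at 5 to 20 CPM and 67.2% and 66.3% at 20 to 50 CPM. They were 68.9% and 73.7% at 50 to 100 CPM and 83.9% and 82.6% at 100 CPM or more. Over all levels together, only the order of lower genes above the rest was thus the same in both fits. Under 5 CPM, at 5 to 20 CPM and at 50 to 100 CPM higher genes stood below the uncalled in both. With all 6 RNA libraries the shares were 17.9% of 28 higher and 42.4% of uncalled genes under 5 CPM. At 50 to 100 CPM they were 69.2% of 13 higher and 73.2% of uncalled genes. At 20 to 50 CPM and at 100 CPM or more higher genes stood below the uncalled only with all 6 RNA libraries. Of the 36 genes that passed in every fit, 13 higher and 22 lower had a mapped start. A peak in all 6 DRIP libraries was present at 1 of the higher and 7 of the lower genes, and no peak in any library at 9 and 6. VGF was the higher gene with a peak in all 6. NRP2, TRABD2A, FGF5, ESM1, CADM1 and EPS8 had none, while PLCD3, ZNF664, PDGFA, CDKN1B, COPE, BHLHE40 and MCFD2, all lower, had one in every library. RNF8 had a peak near its start in 1 of the 6 libraries and XRN2 in none. The DRIP libraries differ in the number of peaks called and their read depth is not given in the sources used here, so absence of a peak is absence of a call.

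**Figure D5:**
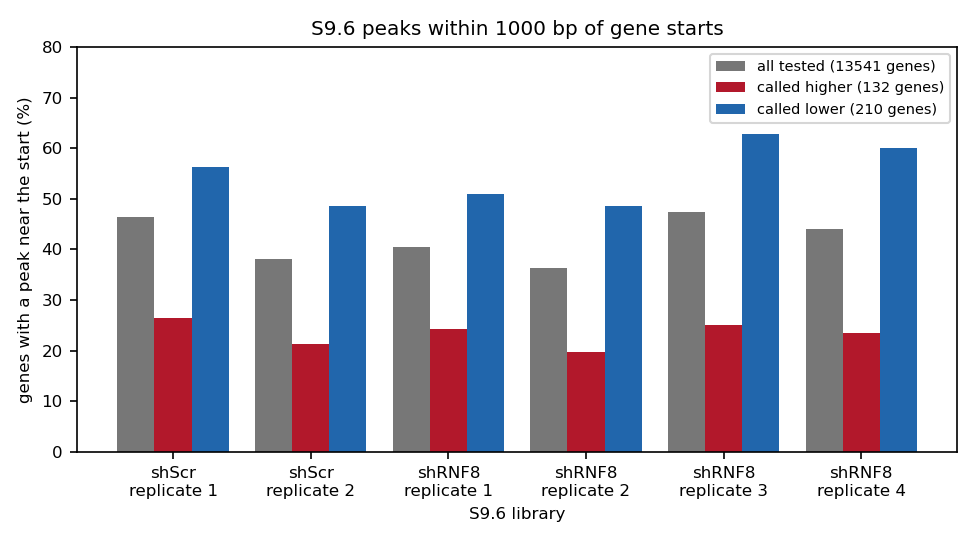
Share of genes (y axis, %) with an S9.6 peak within 1000 bp of the start in each of the 6 S9.6 libraries (x axis), for all tested genes, genes called higher and genes called lower in shRNF8 with all 6 RNA libraries. In each library the bar of lower genes stands above, and that of higher genes below, the bar of all tested genes.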

How the data were processed

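Poly(A)-selected RNA-seq libraries of 3 shScr and 3 shRNF8 samples were compared. The authors deposited raw fragment counts per gene, made by featureCounts (Subread 2.0.1) in paired mode with no strand option, per the file headers; STAR 2.7.9a, Trim Galore 0.6.6 and SAMtools 1.14 are named in the submitters' processing notes, with hg38 as the build. S9.6 peaks came as per-library lists with the fold enrichment of each peak as deposited by the authors, and only peak positions were used here; MACS2 2.2.7.1 is named in the submitters' processing notes. Of 26485 genes, the 14018 kept by filterByExpr were fitted with edgeR 4.0.16 in R 4.3.3 (TMM scaling, glmQLFit with robust estimation, glmQLFTest, group as the 1 term, Benjamini-Hochberg adjustment over all tested genes, threshold 0.05), and again without shScr replicate 1 on the same genes. DESeq2 1.42.0, limma-voom (limma 3.58.1), other scalings and filters, a replicate block and the omission of each library were alternatives. The edgeR script was tested on simulated data. Library totals of 18121181 to 20006954 counts set the counting error, and the biological coefficient of variation was 12.4%. Named genes were RNF8 and XRN2; the genes called in all fits, of at least 5 CPM, by size of change (12 higher and 15 lower); the 8 higher and 8 lower called genes of highest level; the 8 and 8 called only without shScr replicate 1 with the largest change, at least 5 CPM and no overlap; the 6 highest and 6 lowest in shScr replicate 1; up to 4 called members, or 2 uncalled, of each gene group by smallest p; and called noncoding genes of at least 5 CPM. Genes outside this rule are marked as such, and 3 genes that meet it are not reported here. The members and lists were chosen with earlier results of these data known. Gene starts were taken from the count table's annotation, and an S9.6 peak within 1000 bp of the start was counted as overlapping; 13541 genes had 1 mapped start. Tables were handled in Python 3.11.15. RNase-treated and input samples were not used here.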

Additional observations from a re-analysis of the deposited data

How the results depend on the processing

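Against 136 genes called higher and 220 lower with all 6 libraries, no low-count filter gave 267 and 381, and DESeq2 gave 322 and 530. With relative log expression scaling, library size only, a minimum of 5 CPM or limma-voom the counts stayed within 1.5 times of these. Leaving out 1 library gave 17 to 1792 higher and 29 to 2030 lower genes, the highest numbers without shScr replicate 1 and the lowest without shRNF8 replicate 3; the other omissions gave 54 and 77 (shScr replicate 2), 44 and 56 (shScr replicate 3), 28 and 37 (shRNF8 replicate 1) and 23 and 34 (shRNF8 replicate 2). Fewer libraries enter each of these fits, and the cause of the rise without shScr replicate 1 was not tested. At an unadjusted p under 0.05 the numbers in either direction were 2813 with all 6 libraries and 5455 without shScr replicate 1. Higher genes made up 38.2% of the calls, and 44.4% with library size only; no scaling moved the median of all genes by over 0.1 on the log2 scale. The replicate block gave 205 higher and 296 lower genes with all 6 libraries, and 1001 and 1471 in place of 1792 and 2030 without shScr replicate 1. The deviations of same-numbered libraries correlated at -0.14, 0.19 and -0.42 for replicates 1, 2 and 3, so the numbers were not taken to pair the samples. Those of different-numbered libraries correlated at -0.32 to 0.37, with 0.32 between shScr replicate 1 and shRNF8 replicate 3. Without shScr replicate 1 and a further shRNF8 library the counts were 1458 to 2493 higher and 1740 to 2647 lower. The log2 change of DUSP1 ranged from -1.10 to 0.40 and that of FOS from -2.28 to 0.91 over the omissions, with the positive values without shScr replicate 1. Of the 109 named called genes, 109 stayed called with relative log expression scaling, 101 with library size only, 106 without the filter, 100 of the 103 still tested at a minimum of 5 CPM, all 108 with an adjusted p in DESeq2, 104 with limma-voom and 103 with the replicate block; 29 to 53 stayed called when a library other than shScr replicate 1 was left out. Depth limits the calls at low levels, where 6 of 920 genes under 1 CPM were called.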

Other observations

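Within shRNF8, replicate 3 was the library farthest from the others. Differences of at least 2-fold from the mean of replicates 1 and 2 were few, with 0 higher and 1 lower of 10936 genes. Over these genes the median absolute log2 difference was 0.15. For shScr replicate 1 against shScr replicates 2 and 3 it was 0.21. The genes below were chosen after their values were seen. DNAH10, a dynein heavy chain of cilia, had 5.97, 7.89 and 3.35 CPM in shRNF8 replicates 1, 2 and 3, or -1.01 on the log2 scale for replicate 3 against the mean of the others. KMT2D, a methyltransferase of enhancer histones, had 87.5, 69.6 and 44.2 CPM (-0.82). Both were low in shScr replicate 1 too, at 3.25 CPM against 9.70 and 8.96 CPM for DNAH10 and at 72.95 against 107 and 109.5 CPM for KMT2D. HELQ, a DNA helicase, was higher in shRNF8 replicate 3, at 6.77, 5.84 and 10.8 CPM (0.77), as was SIAH1, a ubiquitin ligase, at 5.97, 6.46 and 10.2 CPM (0.70). HELQ did not vary in this way within shScr, where it had 7.47, 7.32 and 7.04 CPM. CA9 and NDRG1, which were lowest in shScr replicate 1 among the controls, were -0.91 and -0.85 in shRNF8 replicate 3 against replicates 1 and 2 on the log2 scale. In shRNF8, CA9 had 2.24, 11.1 and 2.63 CPM and NDRG1 79.2, 139 and 58.1 CPM. Replicate 2 was thus the highest for both genes, and CA9 in replicate 3 lay above replicate 1.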
